A study of Mus musculus with 55 samples.

Results

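Messenger RNA of 10 Notch pathway genes was followed across sorted cell populations of the mouse liver, in normal tissue and after partial hepatectomy (PH, surgical removal of part of the liver). The genes were taken by symbol from a list of pathway genes: the ligands Jag1, Jag2, Dll1 and Dll4, the receptors Notch1, Notch2, Notch3 and Notch4, and the target genes Hes1 and Hey1. All 10 were found, each with 1 row, among 24478 gene symbols. Levels are given in FPKM, a measure of abundance scaled to transcript length and to library size, so levels of different genes can be compared.

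Notch signalling runs between touching cells. A ligand on one cell binds a receptor on its neighbour, the receptor is cut by ADAM proteases and then by the gamma-secretase complex, and the released intracellular part joins the DNA-binding protein RBPJ to switch on target genes such as the Hes and Hey transcriptional repressors. In the liver the pathway is best known for bile duct formation, where Jag1 and Notch2 act, and for the identity of endothelial cells, in which Dll4, Notch1 and Notch4 act.

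The study comprised 55 libraries from C57B/L6 mice, 27 from normal liver and 28 after PH, each from cells separated by FACS. No genetic modification is given, and neither the time after surgery nor the marker combinations of the sorts are stated. The labels do not say whether libraries of a group came from separate mice, so p-values measure the spread between libraries, which may be technical. The 10 populations were clonal biliary epithelial cells (cBEC, 4 normal and 2 PH libraries), biliary epithelial cells (BEC, 4 and 2), non progenitor ducts (NPD, 2 and 2), hepatocytes (HC, 4 and 4), endothelial cells (EC, 2 and 3), liver sinusoidal endothelial cells (LSEC, 3 and 5), Kupffer cells (KC, the resident macrophages, 2 and 3), hepatic stellate cells (HSC, the vitamin A-storing pericytes, 2 and 3), Thy1 cells (2 and 2) and blood cells (2 and 2).

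Library values are listed in the order of the replicate numbers. The library titled PH cBEC 1 carries a treatment label of normal and was kept as titled. Depth is unknown, since FPKM do not hold it, and summed FPKM ranged from 393620 to 762627, highest in HC. Each cell type had a list of 6 marker genes, and mesothelium, smooth muscle and arterial endothelium a list of 4. All 6 markers of its own type averaged 1 FPKM or more in every sort, but some sorts also held markers of other cells. In normal NPD the mesothelial list summed to 4295 to 4438 FPKM, above the duct list at 2574 to 3794. In normal Thy1 cells the duct list reached 860.3 to 5109 FPKM and the mesothelial list 1313 to 2082, beside 966.1 to 1212 for the Thy1 list itself. In the KC and blood sorts the endothelial or macrophage markers differed between normal and PH libraries, with values given beside the results. In bulk samples, fewer cells of a type and less RNA per cell cannot be told apart.

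**Figure D1:**
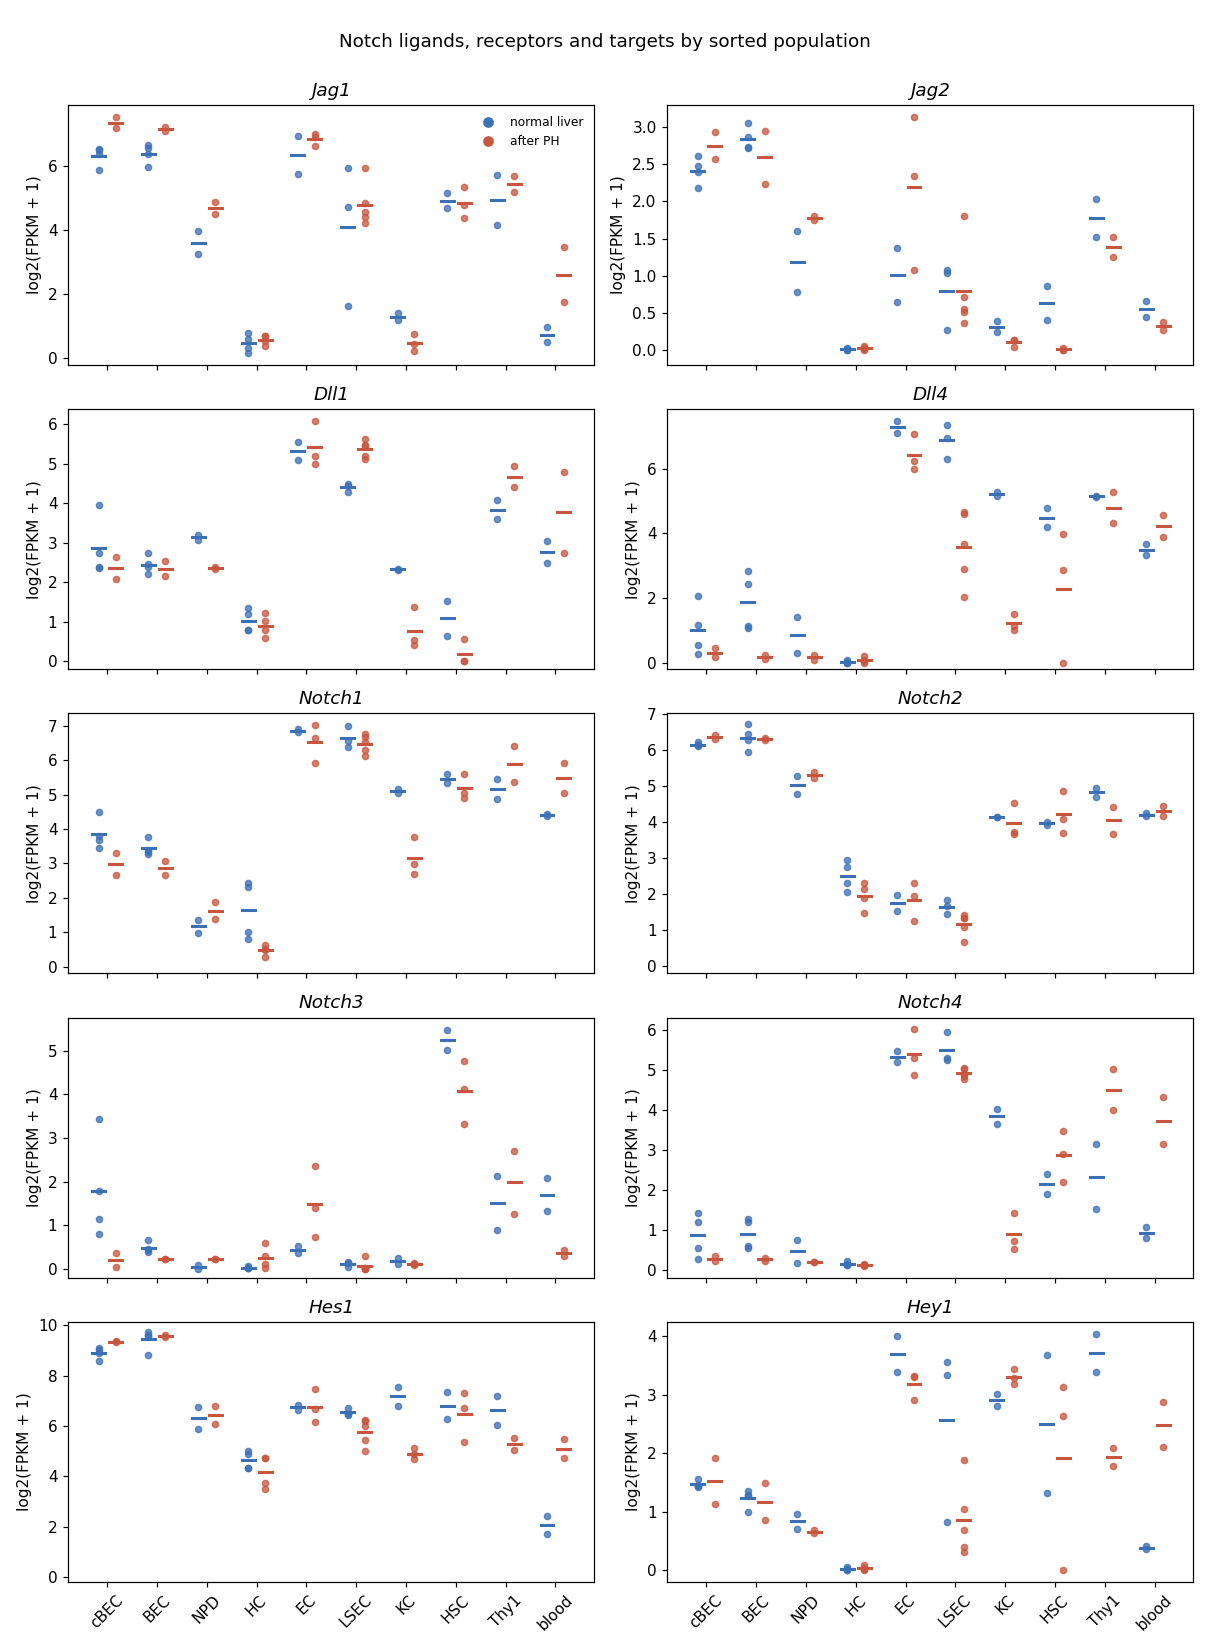
Levels of the 10 genes on the log2(FPKM + 1) scale (vertical axes, 1 panel per gene) in the 10 sorted populations (horizontal axis), normal liver in blue and after PH in red. Each point is a library and each bar a group mean. Jag1, Notch2 and Hes1 were high in cBEC and BEC, Dll1, Dll4, Notch1 and Notch4 in EC and LSEC, and Notch3 in HSC.

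Ducts, endothelium and HSC differed in which Notch genes they held, with some genes shared. Jag1, Jag2, Notch2 and Hes1 were higher in ducts than the mean of the other populations, in normal liver and after PH alike. In both states Jag1, Dll1, Dll4, Notch1 and Notch4 were higher in endothelium, and Notch1 and Notch3 in HSC. Higher than that mean is not highest. Notch1 averaged 36.2 FPKM in PH HSC, below EC (96.4), LSEC (89.4), Thy1 cells (62.6) and blood (46.15). Among the duct sorts NPD held less Jag1 and Hes1 than cBEC and BEC. For these comparisons, the mean of a set of populations was compared with the mean of all others in a single limma fit of all 55 libraries on log2(FPKM + 1), with Benjamini-Hochberg adjustment over 16527 genes and a threshold of 0.05. Relative to the other populations in normal liver, the duct sorts (cBEC, BEC and NPD) had 4 members higher and 5 lower, against 42.6% of all genes called higher and 22.5% called lower. After PH they had the same 4 higher and 6 lower, against 40.6% and 20.6%. The endothelial sorts (EC and LSEC) had 6 members higher and 2 lower in normal liver, against 21.0% and 33.8%, and 5 higher and 1 lower after PH, against 22.9% and 32.0%. HSC had 2 higher and 1 lower in normal liver (13.5% and 33.2% of all genes) and 2 higher and 2 lower after PH (16.9% and 33.2%). KC had 3 higher and 3 lower in normal liver (16.5% and 23.1%) and 1 higher and 8 lower after PH (22.7% and 31.6%), and the normal count was 2 without either normal KC library. HC had all 10 members lower in both states, against 66.6% of all genes in normal liver and 62.9% after PH. These shares moved with scaling: with quantile normalization 41% of all genes were lower in normal HC and 39.7% in PH HC, and the duct sorts had 29.8% higher and 34.9% lower in normal liver and 28.3% and 30.2% after PH. The median of all genes moved from −0.846 to −0.178 in normal HC and from 0.207 to −0.065 in normal ducts. The members called numbered 10 in ducts in both states and 10 in normal HC with that scaling, and 9 in PH HC, where Notch3 did not pass (−0.23, adjusted p = 0.477).

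Among the ligands, Jag1, which signals to Notch2 in duct formation, was highest in the cBEC, BEC and EC sorts. Its FPKM in normal cBEC were 58.0, 91.4, 82.7 and 91.2, in normal BEC 101, 93.8, 61.6 and 82.6, and in normal EC 53.5 and 123. These 3 populations overlapped one another and all lay above normal Thy1 cells (16.98 and 52.0), HSC (35.3 and 24.7) and NPD (8.51 and 14.8), while KC, blood and HC were at 1.65 or below. Normal LSEC spanned the range, at 25.5, 2.10 and 60.1. The duct sorts exceeded the other populations by 2.18 ± 0.28 on the log2 scale (SE, limma adjusted p = 9.55e-09) in normal liver and by 2.75 ± 0.31 (adjusted p = 6.40e-10) after PH. The endothelial sorts exceeded the others by 1.64 ± 0.34 (adjusted p = 9.25e-05) and 1.67 ± 0.29 (adjusted p = 5.6e-06). Within the ducts, normal cBEC exceeded normal NPD by 2.71 ± 0.59 (adjusted p = 0.000273). That comparison called 6 members, all higher in cBEC (Jag1, Jag2, Notch1, Notch2, Notch3 and Hes1), against 32.0% of all genes. After PH it called 4, all higher in cBEC (Jag1, Notch1, Notch2 and Hes1), against 26.8%, and 2 without PH cBEC library 1 or without PH NPD library 2.

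After PH, Jag1 was at 144 and 187 FPKM in cBEC, 137 and 148 in BEC, and 28.6 and 22.0 in NPD. In each of these 3 duct sorts both PH libraries lay above every normal one, as 6.62% of tested genes did in cBEC, 5.29% in BEC and 36.9% in NPD. The differences were 1.04 ± 0.23 (SE, log2) in cBEC, 0.76 ± 0.22 in BEC and 1.09 ± 0.30 in NPD, each from a separate limma fit of that population. None passed the adjusted threshold, with adjusted p of 0.298, 0.141 and 0.0688. Without PH cBEC library 1, the one whose treatment label disagrees with its title, the cBEC difference was 1.22 (adjusted p = 0.34). Without normal NPD library 2 the NPD difference was 1.46. In NPD the duct list summed to 2574 to 3794 FPKM in normal and 3946 to 4729 in PH libraries. The mesothelial list summed to 4295 to 4438 and then to 2902 to 3322. The part of these lists in the NPD difference was not tested.

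Jag2, the paralogue of Jag1, was low and mostly ductal. Normal BEC held 5.56, 7.29, 6.30 and 5.67 FPKM and normal cBEC 4.28, 5.09, 4.56 and 3.52, so that every BEC library was above every cBEC one, and no other normal library passed 3.09. The duct sorts exceeded the others by 1.42 ± 0.16 (SE, log2, limma adjusted p = 4.23e-10) in normal liver. After PH the highest library of all was EC library 2 at 7.82, with 4.08 and 1.11 in the other PH EC libraries and 0.572 and 1.59 in normal EC.

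Dll1 was an endothelial ligand. It stood at 45.5 and 33.3 FPKM in normal EC and 18.4, 20.7 and 21.4 in normal LSEC, followed by Thy1 cells (11.1 and 15.8), with no overlap between these 3 populations. The endothelial sorts exceeded the others by 2.43 ± 0.23 (SE, log2, limma adjusted p = 5.03e-12). Normal cBEC library 1 held 14.5, where the other 3 held 4.10 to 5.69. That library also had the highest mesothelial (367.2 against 64.8 to 92.6 FPKM), smooth muscle (330.1 against 18.19 to 188.8) and endothelial (117.2 against 1.0 to 20.32) marker sums of its group, and their part in its Dll1 was not tested.

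Dll4, the ligand of sprouting and arterial vessels, was mainly endothelial. It had the highest level of the 4 ligands in normal EC and LSEC. Its gene lies at chr2:119151520-119161402 of mm9 on the plus strand. Normal EC held 137 and 176 FPKM and normal LSEC 164, 77.9 and 123, which overlapped. KC (34.7 and 37.5), Thy1 cells (34.1 and 34.9) and HSC (26.3 and 17.4) came next, then blood (11.6 and 8.95), and every duct and HC library was at 6.17 or below. In normal liver the endothelial sorts exceeded the others by 4.32 ± 0.38 (SE, log2, limma adjusted p = 8.63e-13).

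Among the receptors, Notch1, which acts in vessels and many other tissues, was highest in endothelium, at 118 and 113 FPKM in normal EC and 127, 82.7 and 92.7 in normal LSEC, which overlapped. HSC (39.2 and 47.7), Thy1 cells (42.8 and 28.3) and KC (34.7 and 32.2) lay below these, and Thy1 cells overlapped both HSC and KC. HSC exceeded the other populations by 1.21 ± 0.31 (SE, log2, limma adjusted p = 0.00149) in normal liver. Blood held 20.7 and 19.9, and the duct libraries 0.983 to 21.6. Normal HC split into a pair of libraries at 4.39 and 4.01 and a pair at 0.74 and 0.99. The same pairs stood closest over all genes, with a correlation of log2 values of 0.9957 between libraries 2 and 3 and 0.9941 between libraries 1 and 4. PH libraries held 0.55, 0.43, 0.40 and 0.20. Notch1 was below the level needed for a test within HC. It was called lower after PH in the single fit of all groups (−1.16 ± 0.30, SE, limma adjusted p = 0.0097), which called 7.22% of all genes in HC.

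Notch2, the receptor whose loss causes bile duct paucity, showed the reverse order. Normal cBEC held 67.9, 69.4, 73.4 and 70.1 FPKM and normal BEC 104, 60.6, 85.8 and 77.0, which overlapped, and NPD 26.5 and 37.8. Every endothelial library, normal or PH, was between 0.588 and 3.98. The duct sorts exceeded the other populations by 2.55 ± 0.14 (SE, log2, limma adjusted p = 3.14e-19) in normal liver, and the endothelial sorts were below the others by −2.95 ± 0.17 (adjusted p = 1.53e-17). KC, HSC, Thy1 cells and blood lay between 11.7 and 30.1 in all libraries. Notch2 did not pass the threshold between PH and normal in any of the 10 populations, its largest difference being −0.78 (95% interval −1.60 to 0.03) in Thy1 cells.

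Notch3, the receptor of mural cells such as pericytes and vascular smooth muscle, was a stellate gene. Normal HSC held 43.9 and 31.7 FPKM. Outside HSC no library exceeded 9.83, which was normal cBEC library 1, the library described above with the high smooth muscle sum. HSC exceeded the other populations by 4.56 ± 0.36 (SE, log2, limma adjusted p = 1.44e-13) in normal liver and by 3.53 ± 0.30 (adjusted p = 6.37e-13) after PH. HSC was also set against the Thy1 sort, which held duct, endothelial and mesothelial markers as well as its own. In normal liver 4 members were called, against 33.5% of all genes, with Notch3 higher in HSC by 3.75 ± 0.49 (adjusted p = 5.70e-08) and Jag2, Dll1 and Notch2 lower. Without normal HSC library 2 or normal Thy1 library 2 that count was 2. After PH 6 were called, against 32.2% of all genes, with Notch3 and Hes1 higher in HSC and Jag2, Dll1, Dll4 and Notch4 lower, and without PH Thy1 library 2 the count was 3. Markers of other cells differed between these sorts too. The endothelial list summed to 60.44 to 235.4 FPKM in normal HSC against 705.1 to 846.8 in normal Thy1 cells, and to 2.633 to 14.37 against 1115 to 2114 after PH. The duct list summed to 0.292 to 31.5 against 860.3 to 5109 in normal liver and to 11.04 to 29.3 against 856.3 to 1338 after PH, and the mesothelial list to 0.864 to 3.07 against 1313 to 2082 and to at most 2.54 against 730.2 to 1141. Their part in these differences was not tested.

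Notch4, a receptor with expression largely restricted to endothelium, lies at chr17:34701240-34725488 of mm9 on the plus strand. It was at 35.6 and 43.3 FPKM in normal EC and 60.4, 38.6 and 37.0 in normal LSEC, which overlapped. KC held 11.6 and 15.3, Thy1 cells 1.84 and 7.85, HSC 2.72 and 4.28, and all duct, HC and blood libraries of normal liver 1.66 or less. The endothelial sorts exceeded the others by 3.96 ± 0.22 (SE, log2, limma adjusted p = 3.80e-18).

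Of the targets, Hes1, a repressor that keeps cells from differentiating, was the most abundant of the 10 genes in every duct library. Normal BEC held 784, 769, 445 and 851 FPKM, normal cBEC 477, 541, 513 and 385, and normal NPD 105 and 57.5. KC (187 and 110), HSC, EC, Thy1 cells and LSEC lay between 65.4 and 187 and overlapped one another, except KC with LSEC. HC held 19.2, 28.3, 30.7 and 19.0, and blood 2.24 and 4.36. The duct sorts exceeded the other populations by 2.42 ± 0.21 (SE, log2, limma adjusted p = 1.96e-13). Hey1, which acts downstream of Notch in arterial endothelium, was low throughout. Its highest normal values were 15.5 and 9.45 in Thy1 cells, 9.48 and 15.1 in EC, 9.15, 0.762 and 10.8 in LSEC, 11.8 and 1.51 in HSC and 7.11 and 6.04 in KC. All of these overlapped except KC with EC and with Thy1 cells, and ducts, HC and blood were at 1.94 or less. In normal LSEC, library 2 stood far below the other libraries.

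Promoter letters of the members were read from RefSeq (GRCm38.p6, a build other than that of the table, 300 bases around each start). Sequences were found for 8 of the 10 members, with 9 promoters, and not for Hes1 or Hey1. The core letters bound by RBPJ, TGGGAA on either strand, occurred in 0 of the 9, and in 25.56% of all 32851 promoters of that length. The Hes and Hey E-box letters CACGTG occurred in 0 of the 9 and in 7.15% of all. Dll4 and Notch4 are shown because they had the largest falls of the members, in KC, and the target gene Hey2 as an example that holds the RBPJ letters, in capitals, starting at −207 on the opposite strand and at −3 on the gene's own strand, counted from its start.
Dll4 (chr2:119325534-119325833, plus strand): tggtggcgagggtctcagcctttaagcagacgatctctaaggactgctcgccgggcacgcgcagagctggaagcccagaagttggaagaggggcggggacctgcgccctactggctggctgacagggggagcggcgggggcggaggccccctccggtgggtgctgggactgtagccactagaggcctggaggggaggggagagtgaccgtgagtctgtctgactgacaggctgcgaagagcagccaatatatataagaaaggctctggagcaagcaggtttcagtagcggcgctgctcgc
Notch4 (chr17:34564045-34564344, plus strand): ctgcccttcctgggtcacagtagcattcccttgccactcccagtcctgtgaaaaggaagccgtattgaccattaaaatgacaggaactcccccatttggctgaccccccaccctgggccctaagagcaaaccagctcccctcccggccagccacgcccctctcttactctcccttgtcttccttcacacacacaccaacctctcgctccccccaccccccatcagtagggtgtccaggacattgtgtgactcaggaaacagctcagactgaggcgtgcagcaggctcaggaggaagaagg
Hey2 (chr10:30842734-30843033, minus strand): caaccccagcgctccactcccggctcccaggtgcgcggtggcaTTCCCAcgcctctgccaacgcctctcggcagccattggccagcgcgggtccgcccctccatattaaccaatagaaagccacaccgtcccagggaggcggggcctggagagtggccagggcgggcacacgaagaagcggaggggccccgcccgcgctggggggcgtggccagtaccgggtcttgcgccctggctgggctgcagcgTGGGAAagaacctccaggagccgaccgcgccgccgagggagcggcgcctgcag
The absence of a match says only that these letters are not in this window.

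Whether the 10 genes changed after PH was tested in each population with its own limma fit on log2(FPKM + 1), over genes that reached 1 FPKM in a number of its libraries no lower than the size of the smaller group. Of 100 pairs of gene and population, 82 were tested and 14 passed the adjusted threshold of 0.05, 6 higher after PH and 8 lower. All 14 were in 3 populations: KC with 6 of 8 members tested, blood with 6 of 9, and LSEC with 2 of 9. The share of all genes called was 36.8% in KC, 64.0% in blood and 8.46% in LSEC. No member was called in cBEC (0.0681% of all genes called), BEC (1.81%), NPD (15.2%), HC (6.19%, with 3 members tested), EC (0.0249%), HSC (0.00853%) or Thy1 cells (0.00747%). At an unadjusted p under 0.05, members numbered 2 of 10 in cBEC (10.2% of all genes), 3 of 9 in BEC (16.3%), 2 of 6 in NPD (34%), 0 of 3 in HC (21.5%), 1 of 10 in EC (10.8%), 1 of 8 in HSC (8.48%) and 4 of 10 in Thy1 cells (18.1%).

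**Figure D2:**
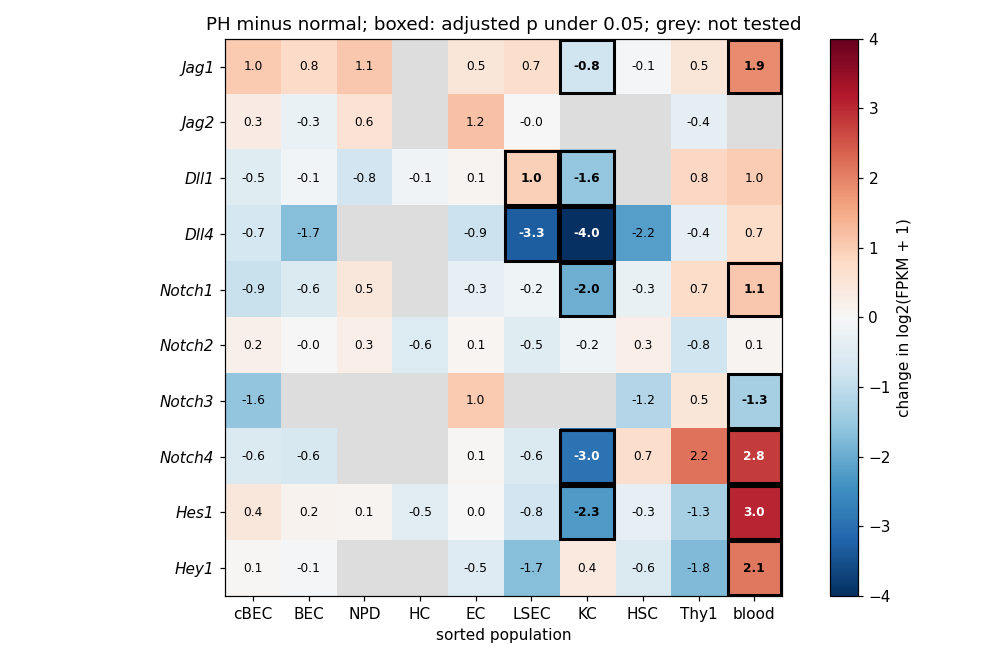
PH minus normal difference in log2(FPKM + 1) for each gene (rows) in each sorted population (columns), with the value in each cell, red higher and blue lower after PH, and grey where the gene was below the level needed for a test. Boxes mark the 14 differences with a limma adjusted p under 0.05, which lie in LSEC, KC and blood.

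In LSEC, Dll4 fell and Dll1 rose. Dll4 went from 164, 77.9 and 123 FPKM in normal LSEC to 6.52, 24.4, 23.2, 3.05 and 11.6 after PH, with no overlap. The change was −3.30 ± 0.59 (SE, log2, limma adjusted p = 0.0124), from a mean of 122 ± 43.0 (SD, n = 3) to 13.8 ± 9.67 (SD, n = 5). Dll1 went from 18.4, 20.7 and 21.4 to 42.2, 48.6, 33.5, 43.2 and 35.7, again with no overlap, a change of 0.97 ± 0.16 (adjusted p = 0.00685). One call higher and 1 lower of 9 tested compares with 4.15% and 4.31% of all genes. The fall of Dll4 did not pass without normal LSEC library 1 (−3.06, adjusted p = 0.058), and Dll1 kept its call without each library in turn. With the 20 groups in a single fit, which called 7.12% of all genes in LSEC, Dll4 passed (adjusted p = 4.36e-05) and Dll1 did not (0.0618). With the replicate number as a block neither passed (Dll4 −2.82, adjusted p = 0.148, and Dll1 0.99, adjusted p = 0.165). Whether the numbers pair the libraries could not be settled. The median difference of the 9 members was −0.49, and that of all genes −0.033. The sinusoidal marker list summed to 4972 to 9690 FPKM in normal LSEC and 1527 to 5584 after PH, and the general endothelial list to 1932 to 2193 and 2185 to 3126. The arterial list summed to 200.1 to 419.8 and 550.7 to 870.9, without overlap. Its mean log2(FPKM + 1) overlapped, at 4.31 to 6.28 and 4.82 to 6.55. The part of these differences in the Dll4 and Dll1 results was not tested.

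The other members in LSEC did not pass. Notch4 was at 60.4, 38.6 and 37.0 FPKM in normal and 28.8, 32.0, 28.1, 26.3 and 31.6 in PH libraries, without overlap (−0.58 ± 0.18, SE, adjusted p = 0.0759). Hes1 was at 104, 85.7 and 88.2 and then at 71.8, 73.5, 31.1, 41.9 and 62.8, also without overlap (−0.78 ± 0.28, adjusted p = 0.114). The low Notch2 did not overlap either, at 1.74 to 2.57 and then at 0.588 to 1.67 (−0.49 ± 0.25, adjusted p = 0.256). Notch1 overlapped, at 82.7 to 127 and 69.0 to 107, with a difference of −0.16 (95% interval −0.61 to 0.28). Hey1 was at 9.15, 0.762 and 10.8 and then at 0.611, 2.69, 0.241, 0.310 and 1.07. Its difference of −1.71 ± 0.61 (adjusted p = 0.117) passed without normal LSEC library 2 (−2.59, adjusted p = 0.017) and in the single fit of all groups (adjusted p = 0.02).

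Arterial markers (Gja5, Sox17, Efnb2 and Gja4) also varied among LSEC libraries. Jag1 in PH LSEC was 61.0 in library 2 and 17.9 to 27.7 in the others, and Jag2 was 2.50 in library 2 and 0.291 to 0.641 in the others. The arterial score, the mean log2(FPKM + 1) of the 4 genes, was 6.549 in that library and 4.818 to 5.262 in the other PH LSEC libraries. Normal LSEC library 2, with Jag1 at 2.10 and Hey1 at 0.762, had an arterial score of 4.312, beside 5.976 and 6.281 in the other normal libraries. Those other normal libraries held Hey1 at 9.15 and 10.8, above PH library 2 with its higher score (2.69). The other PH libraries held 0.241 to 1.07. The part of arterial cells in these values was not tested.

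**Figure D3:**
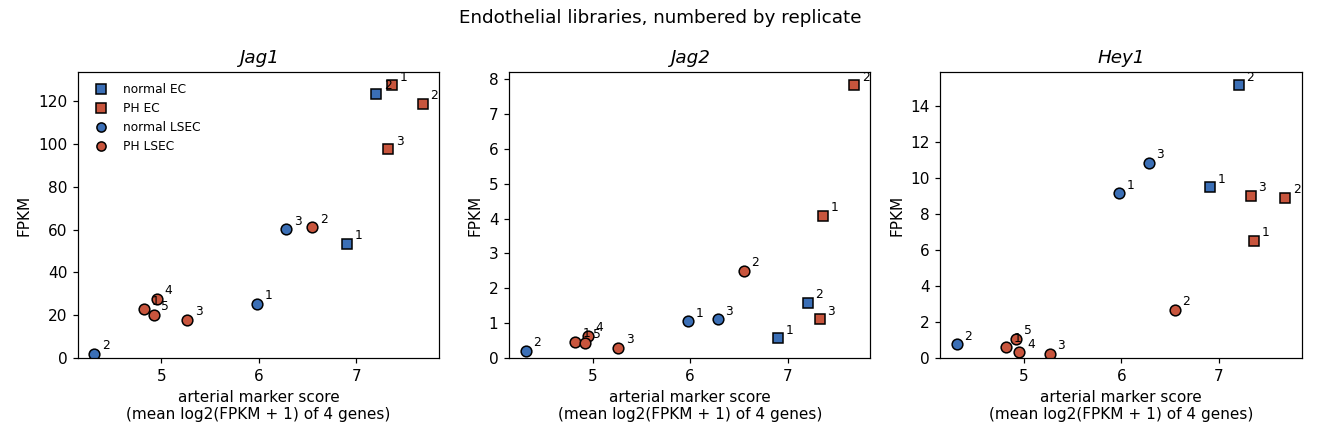
Jag1, Jag2 and Hey1 (vertical axes, FPKM) against the arterial marker score (horizontal axes) in the 13 EC and LSEC libraries, squares for EC, circles for LSEC, blue for normal and red for PH, with replicate numbers beside the points. Among LSEC libraries, PH library 2 had the highest score and the highest Jag1 and Jag2, and normal library 2 the lowest score and the lowest Jag1. Hey1 had a different order, highest in normal LSEC library 3 (10.8 FPKM) and lowest in PH LSEC library 3 (0.241 FPKM).

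No member passed in EC. Dll4 was at 137 and 176 FPKM in normal EC and 62.9, 133 and 74.1 after PH, without overlap but with adjusted p = 0.436 (−0.86 ± 0.33, SE). Hey1 was also without overlap, at 9.48 and 15.1 and then at 6.50, 8.88 and 8.99 (−0.52 ± 0.27, adjusted p = 0.546). So was the low Notch3, at 0.431 and 0.291 and then at 0.662, 4.10 and 1.63 (1.05 ± 0.53, adjusted p = 0.531). The share of all genes without overlap in EC is not given here. Notch1, Notch2, Notch4, Dll1, Jag1, Jag2 and Hes1 overlapped between the states. The difference between the EC and LSEC responses of Dll4, tested as an interaction, was 2.45 (95% interval 0.70 to 4.19, limma adjusted p = 0.364), and no member passed that test, against 0.345% of all genes. Nor did any member pass for a difference of response between cBEC and NPD, against 3.79%. At an unadjusted p under 0.05 each of these tests had 2 of 10 members, against 6.26% of all genes for EC and LSEC and 15.4% for cBEC and NPD.

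EC and LSEC were also compared directly, within each state. In normal liver Jag1 alone was called, higher in EC by 2.27 ± 0.62 (SE, log2, adjusted p = 0.0491), 1 of 10 against 1.47% of all genes, and that call was lost when any of 42 of the 55 libraries was left out of the fit. After PH 5 of 10 were called, all higher in EC, against 8.36% of all genes. The number of libraries differed between the states, and the counts are no test of a change with PH. The 5 members were Jag1 (2.04 ± 0.49), Jag2 (1.39 ± 0.28), Dll4 (2.86 ± 0.54), Notch3 (1.43 ± 0.36) and Hey1 (2.31 ± 0.48). Marker lists of other cells differed between the same libraries without overlap. The mesothelial list summed to 107.3 to 429.7 FPKM in PH EC and 0.19 to 1.34 in PH LSEC, the duct list to 166.7 to 321.6 and 9.96 to 98.35, and the smooth muscle list to 31.26 to 58.3 and 3.4 to 14.05. The arterial list overlapped as a sum, at 789.6 to 1098 and 550.7 to 870.9. Its score did not, at 7.328 to 7.681 in PH EC and 4.818 to 6.549 in PH LSEC. The part of these lists in the 5 differences was not tested.

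In KC, 6 of the 8 members tested fell, against 20.1% of all genes called lower. Dll4 went from 34.7 and 37.5 FPKM to 1.18, 1.03 and 1.86, a change of −3.99 ± 0.21 (SE, log2, limma adjusted p = 0.0012). Notch4 went from 11.6 and 15.3 to 0.634, 0.428 and 1.69 (−2.96 ± 0.33, adjusted p = 0.00268). Neither gene overlapped between the states, and all PH libraries were at 1.86 or less. The median difference of the 8 members tested was −1.75, and that of all genes −0.04.

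Notch1 went from 34.7 and 32.2 to 6.89, 5.49 and 12.7 FPKM in KC (−1.95 ± 0.33, SE, adjusted p = 0.0091). Dll1 went from 4.07 and 3.95 to 0.322, 0.454 and 1.57 (−1.56 ± 0.33, adjusted p = 0.0185), and Jag1 from 1.65 and 1.28 to 0.378, 0.186 and 0.704 (−0.81 ± 0.24, adjusted p = 0.0456). Hes1 went from 187 and 110 to 28.4, 24.8 and 33.7 (−2.28 ± 0.26, adjusted p = 0.00289). Notch2, at 16.6 and 16.7 in normal and 12.2, 11.7 and 22.3 in PH libraries, did not pass (−0.16, 95% interval −0.90 to 0.58), nor did Hey1, at 7.11 and 6.04 and then 9.89, 8.15 and 8.79 (0.39, 95% interval −0.02 to 0.80). Without normal KC library 1 or 2 the count was 3 of 6. Dll4, Notch4 and Hes1 kept their calls in every alternative tried, while Jag1 kept its call in 4 of 13, Dll1 in 8 of 13 and Notch1 in 11 of 13.

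Endothelial markers moved with these falls. All 6 genes of the sinusoidal list (Stab1, Stab2, Lyve1, Clec4g, Oit3 and Fcgr2b) were above 1 FPKM in both states, and their sum was 3240 to 4470 in normal KC and 303.2 to 526.4 in PH KC. The general endothelial list (Pecam1, Cdh5, Tek, Erg, Emcn and Vwf) went from 789.2 to 943.1 FPKM to 279.9 to 491.6, with 6 of 6 genes present. The KC list itself summed to 14260 to 15840 and then to 23920 to 25460. The sinusoidal sum of normal KC lay within the range of normal EC (2672 to 5811). Of the 6 members that fell, all but Hes1 had their highest normal mean in EC or LSEC. Immediate-early genes also differed between KC libraries, beside Hes1. Fos was at 793.2 and 1018 FPKM in normal and 61.5, 54.9 and 114 in PH libraries, and Jun at 363.6 and 500.2 and then at 38.2, 27.3 and 68.1. The part of endothelial RNA or of these genes in the member results was not tested.

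**Figure D4:**
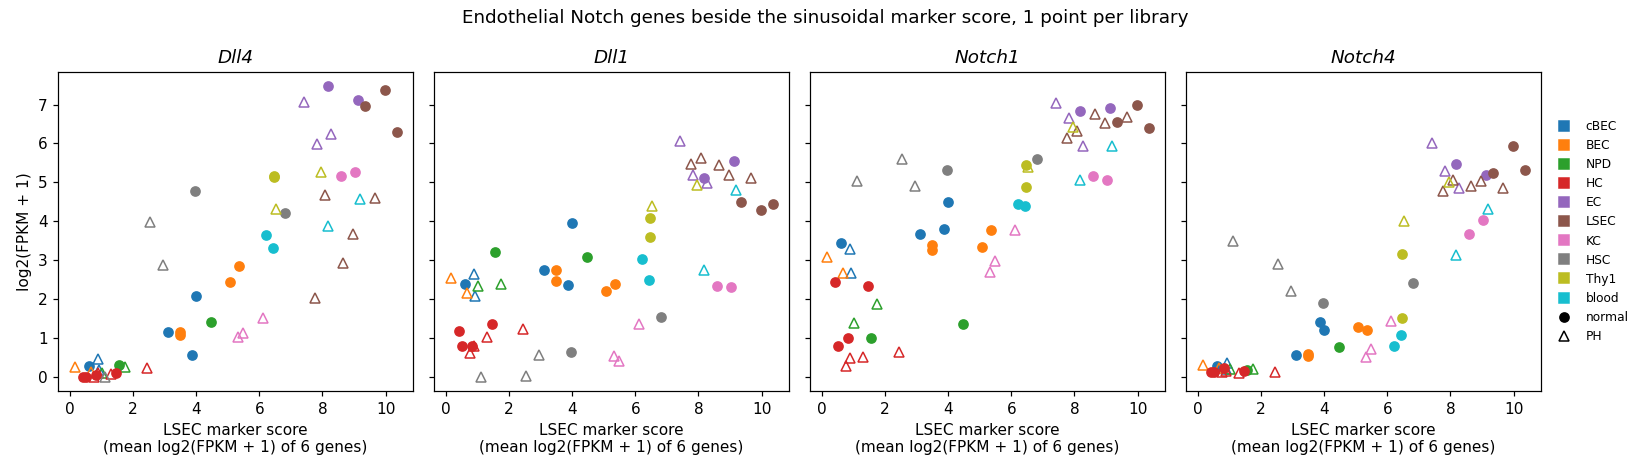
Dll4, Dll1, Notch1 and Notch4 on the log2(FPKM + 1) scale (vertical axis) against the sinusoidal marker score, the mean log2(FPKM + 1) of 6 genes (horizontal axes), with 1 point per library, filled circles for normal and open triangles for PH, and colours for the 10 populations. For Notch1 and Notch4, normal KC lay above PH KC and PH blood above normal blood on both axes.

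In blood, 5 of 9 members tested rose and 1 fell, against 24.3% and 39.7% of all genes. Hes1 went from 2.24 and 4.36 FPKM to 43.2 and 25.3 (3.03 ± 0.37, SE, log2, limma adjusted p = 0.00296) and Notch4 from 0.726 and 1.10 to 18.9 and 7.81 (2.80 ± 0.43, adjusted p = 0.00535). Hey1 went from 0.283 and 0.325 to 3.33 and 6.31 (2.11 ± 0.30, adjusted p = 0.00427), Jag1 from 0.420 and 0.958 to 10.1 and 2.40 (1.88 ± 0.60, adjusted p = 0.0454), and Notch1 from 20.7 and 19.9 to 59.8 and 32.5 (1.08 ± 0.31, adjusted p = 0.0331). Notch3 fell from 3.25 and 1.49 to 0.234 and 0.360 (−1.33 ± 0.30, adjusted p = 0.0161).

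The blood comparison rests on 2 libraries a side, and the content of the sort differed. The blood list (Ptprc, Cd3e, Cd79a, Nkg7, S100a8 and Itgal) summed to 4362 to 4555 FPKM in normal and 734.4 to 1115 in PH libraries, with Cd3e at 293.6 and 326.7 and then at 4.10 and 8.68. Over the same libraries the KC list went from 538.7 to 838.2 FPKM to 8146 to 14440, the sinusoidal list from 705.5 to 804.1 to 2454 to 5465 and the endothelial list from 152.7 to 166.6 to 674.4 to 1261, each with 6 of 6 genes above 1 FPKM. PH blood library 1 had the higher values of Jag1, Dll1 (26.8 against 5.70), Dll4 (22.6 against 13.6), Notch1 and Notch4. Their part in the member results was not tested. The median difference of the 9 members was 1.08. That of all genes was −0.31, or −0.14 with quantile normalization, and the fall of Notch3 exceeded it while the 5 rises were opposite to it. Without normal blood library 1 the count was 0, without normal blood library 2 it was 1.

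The duct sorts had further members whose libraries did not overlap but did not pass. Every PH library lay above every normal one for 6.62% of tested genes in cBEC, 5.29% in BEC and 36.9% in NPD. The shares below are not given here. In BEC, Dll4 was at 1.10, 4.43, 6.17 and 1.21 FPKM in normal and 0.178 and 0.0801 in PH libraries (−1.70 ± 0.52, SE, limma adjusted p = 0.154), and Notch1 at 9.43, 9.09, 12.6 and 8.61 and then at 7.37 and 5.37 (−0.57 ± 0.22, adjusted p = 0.252). Notch4 in BEC was at 0.450, 1.40, 1.305 and 0.506 and then at 0.231 and 0.166 (−0.64 ± 0.32, adjusted p = 0.379). The sinusoidal list in BEC summed to 78.41 to 313.8 FPKM in normal, with 6 of 6 genes averaging 1 or more, and to 0.692 to 4.25 in PH libraries, with 0 of 6, and its part was not tested. In cBEC, Notch1 was at 21.6, 11.8, 9.88 and 12.97 and then at 8.79 and 5.35 (−0.88 ± 0.33, adjusted p = 0.449), Notch3 at 9.83, 1.22, 0.755 and 2.45 and then at 0.294 and 0.0340 (−1.59 ± 0.70, adjusted p = 0.49), and Hes1 at 477, 541, 513 and 385 and then at 659 and 638 (0.45 ± 0.21, adjusted p = 0.501). Notch2 in cBEC was at 67.9, 69.4, 73.4 and 70.1 and then at 78.6 and 84.6 (0.21 ± 0.15, adjusted p = 0.644). In cBEC the smooth muscle list summed to 18.19 to 330.1 FPKM in normal and 6.89 in both PH libraries, and the mesothelial list to 64.8 to 367.2 and then 9.90 to 29.86, both without overlap. The sinusoidal sums, 3.81 to 121.6 and then 7.22 to 8.18, overlapped. The part of these lists in the cBEC values was not tested. In NPD, Dll1 was at 7.45 and 8.17 and then at 4.25 and 4.01 (−0.78 ± 0.21, adjusted p = 0.0659). Notch1 in NPD lay above its normal values, opposite to BEC and cBEC, at 1.54 and 0.983 and then at 2.66 and 1.60 (0.46 ± 0.33, adjusted p = 0.382). Jag2 in NPD was also above, at 0.711 and 2.02 and then at 2.49 and 2.36 (0.59 ± 0.37, adjusted p = 0.32). The duct and mesothelial lists in NPD also differed between the states without overlap, and their part was not tested. In HC the 3 members tested overlapped between the states: Hes1 was at 10.2 to 25.8 after PH, Notch2 at 3.16 to 6.67 and then 1.77 to 3.97, and Dll1 at 0.73 to 1.56 and then 0.51 to 1.33.

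Thy1 cells had no call. Notch4 was at 1.84 and 7.85 FPKM in normal and 14.9 and 31.4 in PH libraries (2.18 ± 0.65, SE, limma adjusted p = 0.215). It passed in the single fit of all groups (adjusted p = 0.000487), which called 11.4% of all genes in Thy1 cells. Hey1 was at 15.5 and 9.45 and then at 2.45 and 3.24 (−1.78 ± 0.36, adjusted p = 0.148), and Hes1 at 65.4 and 144 and then at 32.1 and 44.9 (−1.33 ± 0.45, adjusted p = 0.24), all 3 without overlap between the states. Also without overlap were Dll1, higher after PH (0.84 ± 0.31, adjusted p = 0.262), and Notch2 (−0.78 ± 0.32, adjusted p = 0.289) and Jag2 (−0.39 ± 0.38, adjusted p = 0.606), both lower. The share of all genes without overlap in Thy1 cells is not given here. The endothelial list summed to 705.1 to 846.8 FPKM in normal and 1115 to 2114 in PH Thy1 cells. The mesothelial list summed to 1313 to 2082 and then to 730.2 to 1141. The duct list overlapped, at 860.3 and 5109 and then at 1338 and 856.3. The part of these lists in the Thy1 values was not tested.

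In HSC, also with no call, Notch3 was at 43.9 and 31.7 FPKM in normal and 9.07, 16.3 and 26.4 in PH libraries, without overlap (−1.18 ± 0.47, SE, limma adjusted p = 0.544). The HSC list itself summed to 5111 to 5135 and then to 2792 to 3819, and its part was not tested. Dll4 was at 26.3 and 17.4 and then at 6.27, 0 and 14.7 (−2.21 ± 1.05, adjusted p = 0.611). It passed in the single fit of all groups (adjusted p = 0.0252), which called 11.9% of all genes in HSC. The endothelial list in HSC went from 60.44 to 235.4 FPKM to 2.63 to 14.37 and the sinusoidal list from 167.2 to 981.3 to 14.15 to 69.15, and their part was not tested. PH HSC library 2 lists Jag2, Dll1, Dll4 and Hey1 at 0 and also has 13848 symbols at 0, more than the 10670 to 12538 of the other HSC libraries. It also had the lowest endothelial (2.633 FPKM) and sinusoidal (14.15 FPKM) sums of the HSC libraries. Whether a 0 there is a failed estimate was not tested. Hes1 overlapped, at 160 and 76.0 and then at 158, 40.6 and 104.

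**Figure D5:**
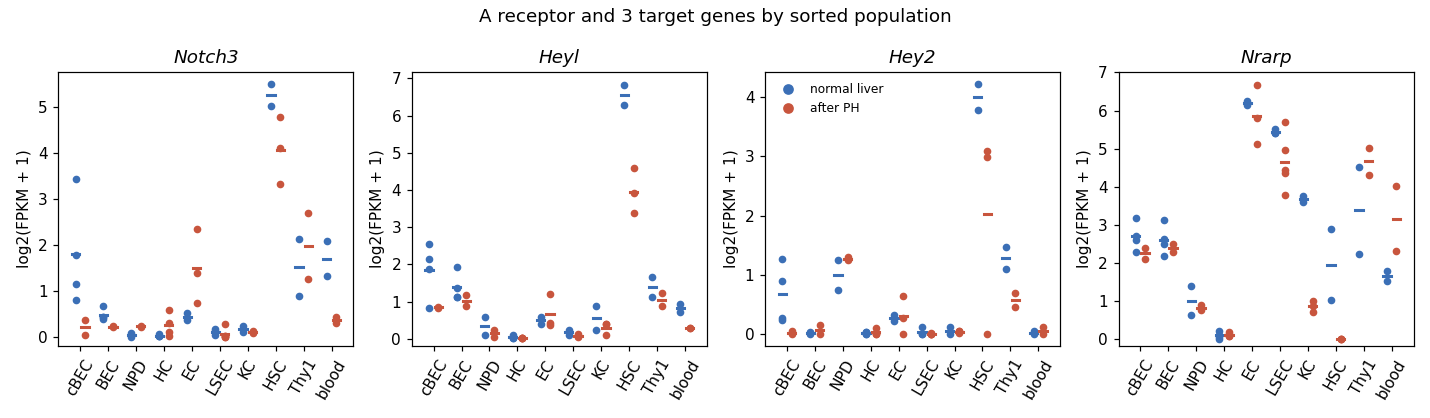
Notch3 and the target genes Heyl, Hey2 and Nrarp on the log2(FPKM + 1) scale (vertical axes) by sorted population (horizontal axes), points for libraries and bars for group means, blue for normal and red for PH. Notch3, Heyl and Hey2 were highest in HSC, where the PH libraries of all 3 were below the normal ones.

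The response to PH was also compared across all 10 populations at once, with a moderated F test of the interaction. It called 7 of 10 members, against 47.8% of all genes: Dll1 (limma adjusted p = 0.00132), Dll4 (0.000352), Notch1 (0.000404), Notch3 (0.00699), Notch4 (6.91e-09), Hes1 (6.62e-06) and Hey1 (0.0114). Jag1 (0.327), Jag2 (0.0815) and Notch2 (0.215) were not called. The F test does not say which populations differ, and KC and blood, whose marker content differed between the states, are among them.

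A list of 58 pathway genes, which includes the members, was counted by role. It had 21 called of 45 tested in KC (3 higher and 18 lower, against 16.7% and 20.1% of all genes) and 29 of 46 in blood (17 and 12, against 24.3% and 39.7%). It had 5 of 44 in LSEC (1 and 4, against 4.15% and 4.31%), 4 of 28 in HC (0 and 4, against 1.78% and 4.41%) and 2 of 45 in NPD (1 and 1, against 9.65% and 5.51%). No gene of the list was called in cBEC, BEC, EC, HSC or Thy1 cells, where limma called at most 1.81% of all genes. At an unadjusted p under 0.05 the list had 3 of 50 in cBEC (10.2% of all genes) and 7 of 49 in BEC (16.3%). It had 2 of 45 in EC (10.8%), 4 of 46 in HSC (8.48%) and 11 of 51 in Thy1 cells (18.1%). The median difference over the list was −0.52 in KC, where the median of all genes was −0.04, and 0.45 in blood, where it was −0.31. In KC, where 20.1% of all genes were lower and 36.8% called, the nuclear complex had 5 of 10 lower and none higher. The cleavage enzymes had 0 of 10 called there, and 0 at an unadjusted p under 0.05, against 47.8% of all genes. In blood, where 24.3% of all genes were higher and 39.7% lower, the nuclear complex had 5 higher and 3 lower of 10 and the cleavage enzymes 4 higher and 1 lower of 10.

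Among target and feedback genes, Nrarp, which Notch induces and which promotes turnover of the receptor's intracellular part, followed the endothelial pattern. It was at 69.9 and 74.8 FPKM in normal EC and 41.6, 44.4 and 41.4 in normal LSEC, and fell in KC from 11.2 and 12.5 to 0.802, 0.640 and 0.991 (−2.83 ± 0.19, SE, log2, limma adjusted p = 0.00138). The sinusoidal list in KC summed to 3240 to 4470 FPKM in normal and 303.2 to 526.4 in PH libraries, and its part was not tested. Heyl and Hey2, relatives of Hey1, were HSC genes. Heyl was at 113 and 76.3 in normal HSC and 9.34, 14.0 and 23.1 after PH, without overlap (−2.60 ± 0.42, adjusted p = 0.208), and at 4.89 or less in every other population. Hey2 was at 17.5 and 12.6 in normal HSC and 6.93, 0 and 7.50 after PH (−1.96 ± 0.95, adjusted p = 0.611), and at 1.76 or less elsewhere.

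Hes6, which opposes Hes1, was highest in normal HC. There it fell from 240, 118, 108 and 271 FPKM to 33.9, 26.5, 55.9 and 49.5 (−2.07 ± 0.36, SE, log2, limma adjusted p = 0.0101), while in NPD it rose from 2.39 and 5.21 to 18.7 and 14.1 (1.91 ± 0.35, adjusted p = 0.0291). In NPD the mesothelial list was at 4295 to 4438 in normal and 2902 to 3322 in PH libraries, and the duct list at 2574 to 3794 and 3946 to 4729, whose part was not tested. Psen2, a catalytic subunit of gamma-secretase, fell in HC from 230, 161, 141 and 236 to 89.8, 57.2, 104 and 93.8 (−1.14 ± 0.26, adjusted p = 0.0313).

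Mfng, a Fringe enzyme that adds sugar to Notch receptors and alters their ligand preference, fell in LSEC from 42.1, 28.8 and 41.5 FPKM to 11.8, 10.1, 6.67, 11.5 and 10.7 (−1.79 ± 0.21, SE, log2, limma adjusted p = 0.00192). Its relative Lfng did not pass there, at 46.65 to 66.1 and 45.02 to 67.8. In KC, Numb, an adaptor that inhibits Notch, fell from 43.7 and 46.2 to 12.46, 13 and 16.3 (−1.63 ± 0.16, adjusted p = 0.00196), while Dtx4, a Deltex ubiquitin ligase, rose from 3.29 and 1.93 to 6.995, 6.84 and 10.1 (1.33 ± 0.27, adjusted p = 0.015). In blood, Furin, the protease that processes Notch precursors, rose by 3.29 ± 0.24 (adjusted p = 0.00102), and Mib1, the ubiquitin ligase that lets ligands signal, by 3.01 ± 0.21 (adjusted p = 0.000934). Dtx1 fell by 2.96 ± 0.42 (adjusted p = 0.00428) from 14.8 and 26.3 to 0.967 and 2.62, and Dtx3 fell by 2.19 ± 0.22 (adjusted p = 0.00191). In blood 64.0% of all genes were called. There the blood list went from 4362 to 4555 FPKM to 734.4 to 1115, and the KC list from 538.7 to 838.2 to 8146 to 14440. In KC the sinusoidal list went from 3240 to 4470 to 303.2 to 526.4, and in LSEC from 4972 to 9690 to 1527 to 5584. The part of these lists was not tested.

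The genes whose profile was most like that of each member were ranked by Pearson r over the 20 group means of log2(FPKM + 1), among 13009 symbols. These are descriptions over groups that share libraries with the member itself. Dll4 was most like Ldb2 (r = 0.96), Clec14a (0.957) and Cldn5 (0.956), each highest in normal EC or LSEC. Notch4 was most like Hecw2 (0.984), Dchs1 (0.979) and Pcdhb14 (0.965), and Notch1 like Slc9a3r2 (0.954), Pros1 (0.952) and Acer2 (0.951). Dll1 was most like Stox2 (0.951), Cbfa2t3 (0.943) and Podxl (0.928). Notch3 was most like Mamdc2 (0.938), Susd2 (0.935) and Carmn (0.932), all highest in HSC. Jag1 was most like Kalrn (0.943), Mkl2 (0.938) and Zbtb10 (0.934), Jag2 like Mal (0.954), Olfml2a (0.951) and Itgb4 (0.947), Notch2 like Pik3r2 (0.935), Slc27a1 (0.933) and Pip4k2c (0.928), and Hes1 like Kif1b (0.922), Ncoa1 (0.922) and Zc3h7b (0.921). Hey1 had the weakest likeness, with Cmklr1 (0.812), Fmnl2 (0.807) and Trim62 (0.799). Among the members, Dll4, Notch1 and Notch4 were most alike (r = 0.894 to 0.904), and Jag1 with Jag2 (0.812) and Hes1 (0.776).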

How the data were processed

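RNA sequencing values of 55 libraries from 10 FACS-sorted mouse liver populations were used as deposited. The values are taken as FPKM, per the name of the table the authors deposited, since its headers give no unit. The submitters' processing notes name CASAVA 1.8.2, Bowtie 1.0.0 and mm9, while the counting tool is not given in the sources used here. FPKM keep no depth, so counting error could not be computed. The table has 36141 transcript rows and 24478 symbols, and where a symbol had several rows, that of highest average FPKM was kept. Starts in the table were taken to count from 0 and raised by 1, because end minus start equalled the RefSeq length for 9426 of 17613 symbols compared, and end minus start plus 1 for 465; the rest matched neither.

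The members and the lists of pathway and marker genes were chosen with earlier results of these data known. Differences were tested on log2(FPKM + 1) with limma 3.58.1 in R 4.3.3 (moderated variances with trend, robust, two-sided, Benjamini-Hochberg over all genes tested, adjusted p under 0.05), a scale that understates changes of low genes. PH and normal libraries were compared in 1 fit per population. Population contrasts and interactions came from 1 fit of 20 groups, over genes with at least 1 FPKM in at least 2 libraries. The script was tested on simulated data. The alternatives were a pseudocount of 0.1, no filter, quantile and upper-quartile scaling, the mean over a symbol's rows, genes under 10 FPKM in hepatocytes, a replicate block, other sets of fitted libraries and leaving out each library. Named in the text were all members, and of the other pathway genes up to 2 rises and 2 falls per population that passed with a log2 change of at least 1 and no overlap, as well as the 3 genes most like each member with at least 5 FPKM in a group mean. Lfng, Heyl, Hey2, Fos, Jun and Nrarp outside KC were named after their values were seen. Transcripts at 300 FPKM or more in hepatocytes were listed at 0 in 6.79% of values of other sorts, whereas those at 10 to under 30, the range of Hes1, were so in 0.303%. Python 3.11.15 with numpy 2.4.6, pandas 2.3.3 and matplotlib 3.10.9 was used for tables and plots.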

Additional observations from a re-analysis of the deposited data

Results flagged for a closer look

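Among 35 sets of 4 to 10 libraries of a group examined for a lone extreme value, 3 had one, where chance at 1 in 20 would give 1.8. Jag1 in PH LSEC had a highest library of 61.01 FPKM (library 2), and Jag2 in the same group had its highest in the same library, at 2.497 FPKM. Dll1 in normal cBEC had a highest library of 14.51 FPKM (library 1). The report gives the arterial, mesothelial, smooth muscle and endothelial marker values of these libraries, whose part was not tested.

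For 7 members the response to PH differed between the 10 populations by the limma interaction test, with adjusted p of 0.00132 for Dll1, 0.000352 for Dll4, 0.000404 for Notch1, 0.00699 for Notch3, 6.91e-09 for Notch4, 6.62e-06 for Hes1 and 0.0114 for Hey1. The direction was opposite for Dll1 in LSEC (higher after PH) and KC (lower), and for Notch1, Notch4 and Hes1 in KC (lower) and blood (higher). These pairs of populations were not tested against each other.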

How the results depend on the processing

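Of 14 differences between PH and normal called, leaving out 1 library at a time gave 8 to 17, without a normal blood library 8 or 9. The counts of members called, main and then lowest to highest, were 6 (3 to 7) in KC, 6 (0 to 7) in blood, 2 (1 to 3) in LSEC, 0 (0 to 3) in NPD and 0 (0 to 0) in the other 6 populations. For the sets they were 9 (8 to 9) and 10 (9 to 10) for ducts in normal and PH liver, 8 (8 to 8) and 6 (6 to 7) for endothelium, 3 (3 to 4) and 4 (4 to 6) for HSC, 6 (2 to 7) and 9 (7 to 9) for KC, and 10 (10 to 10) and 10 (9 to 10) for HC, 75 (71 to 78) in all. For pairs they were 1 (0 to 1) and 5 (5 to 6) for EC against LSEC, 6 (4 to 6) and 4 (2 to 5) for cBEC against NPD, and 4 (2 to 4) and 6 (3 to 6) for HSC against Thy1 cells, 26 (22 to 27) in all. For responses they were 0 (0 to 1) for EC against LSEC, 0 (0 to 1, without normal cBEC library 3) for cBEC against NPD and 7 (6 to 8) for the F test, 7 (6 to 9) in all. In a single fit of all groups cBEC, HC, HSC and Thy1 cells each had 1 member called in place of 0. That fit called 3.12%, 7.22%, 11.9% and 11.4% of all genes in these populations. With a pseudocount of 0.1, BEC had 1, EC against LSEC in normal liver 0 and the cBEC against NPD response 1. With quantile normalization NPD had 1, EC against LSEC in normal liver 0 and HSC against Thy1 cells in normal liver 2. With no filter EC against LSEC in normal liver had 0, and with upper-quartile scaling cBEC against NPD after PH had 2. With only the 2 groups compared in the fit, EC against LSEC had 0 in normal liver and 3 after PH, HSC against Thy1 cells 2 and 2, and all pairs 17. Of 23 same-numbered pairs of libraries, 5 deviated together at a correlation over 0.1 (range −0.649 to 0.493). With so few libraries a group these deviations are not independent, so they cannot show whether replicate numbers pair libraries. With the replicate block, BEC, NPD and Thy1 cells had 1 member each, LSEC 0 and EC against LSEC in normal liver 0. The signs of 2 single differences reversed: Dll1 in blood without PH blood library 1 (−0.016, adjusted p = 0.967, against 2.038, adjusted p = 0.0153, without PH blood library 2) and Jag2 in HSC against Thy1 cells in normal liver with quantile normalization (0.149). Of the other single values, 1057 stayed on their side of the threshold, 70 lost and 14 gained a call. The cause was not tested. Unknown depth limits values near 0.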
